A study of Mus musculus with 6 samples.

Results

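Group 2 innate lymphoid cells (ILC2s) are tissue lymphocytes that answer the alarm cytokine IL-33 with type 2 cytokines. Their identity rests on a small set of transcription factors, and 10 genes of that set are described here: Gata3, Rora, Bcl11b, Gfi1, Ets1, Zbtb16, Maf, Lmo4, Nfil3 and Bhlhe40. They were taken by symbol from a table of 16588 genes, and each symbol matched 1 row. The 6 libraries hold RNA of activated lung ILC2s, 3 of them from mice with the label C57BL/6 (here WT) and 3 from mice labelled Cnr2 KO, a knockout of the gene for the cannabinoid receptor CB2 (KO-labelled below). Mice of both groups received 0.5 µg of recombinant IL-33 into the nose on 3 days in a row, cells were isolated on day 4, and the sorted ILC2s were cultured for 18 h. The labels give no age, sex, knockout allele or number of animals per library. The series title speaks of adipose tissue, whereas the labels of all 6 samples name lung.

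Total counts were 17867541 to 19399819 in 5 libraries and 129617689 in WT replicate 2, a depth 6.88 times the mean of the others. Cnr2 itself ran against its label, with 76, 503 and 60 counts in WT and 147, 139 and 135 in the KO-labelled libraries (2.01-fold higher, edgeR adjusted p = 2.11e-05). A deleted exon cannot be seen in values per gene, so groups are called by their labels throughout. All 10 listed ILC2 markers were analysed. They summed to 7590 to 8267 CPM (counts scaled to library size) in WT and 9474 to 10333 CPM in the KO-labelled libraries. This list includes Gata3, 1 of the genes described here (group means 288.4 and 1073 CPM), so the sum is not independent of them. Most of the sum was Il5, which was not called (group means 5285 and 5354 CPM). Of the 10 markers, 7 were called higher and 2, Il13 and Areg, lower. Over all 12150 tested genes, 33.1% were called higher and 33.2% lower. Thy1 among them was scarce, with 0.845 to 0.968 CPM (WT) and 3.44 to 3.88 CPM (KO-labelled). Of 12 T cell markers, 8 were analysed, with Trbc2 the most abundant. These 8 summed to 71.9 to 76.0 CPM in WT and 130.0 to 137.6 CPM in the KO-labelled libraries. Of the 7 tested, 6 were called higher and 1, Trac, lower, to be read against the same shares of all tested genes. T cells also use Gata3, Bcl11b and Ets1, and the part of such cells in the results was not tested. Cd3d stood at 0.0852 to 0.222 CPM over the 6 libraries and was not tested, Cd3e at 0.976 to 2.51 CPM (1.83-fold higher in the KO-labelled libraries, edgeR adjusted p = 0.0222). Cd3g rose from 4.65 ± 0.63 to 17.2 ± 1.4 CPM (3.61-fold), Cd247 from 12.5 ± 0.78 to 19.9 ± 0.46 CPM and Trbc2 from 39.9 ± 2.05 to 67.4 ± 4.07 CPM (SD, n = 3 each). Markers of NK cells and ILC1s summed to 46.1 to 77.8 CPM over the 6 libraries, mostly Gzma. Those of ILC3s, of myeloid cells and of basophils and mast cells each summed to at most 6.43 CPM, with no overlap between the groups. The ILC3 sum was 4.66 to 4.83 CPM in WT and 0.822 to 1.16 CPM in the KO-labelled libraries. The myeloid sum was 1.42 to 1.98 and 3.75 to 6.43 CPM, and that of basophils and mast cells 1.58 to 3.43 and 3.70 to 4.33 CPM. The 1 B cell marker analysed, Cd79b, stood at 16.1 to 17.2 CPM in WT and 25.1 to 26.3 CPM in the KO-labelled libraries, and was called higher. Of 6 listed stromal and epithelial markers, 3 were analysed, and they summed to 85.0 to 125.1 CPM. Sftpc, Pdgfra and Cdh5 were not among the genes analysed. Col1a1 was not called, with group means of 0.432 (WT) and 0.761 CPM (KO-labelled). The sum was thus nearly all Pecam1 and Epcam. Pecam1 was 2.75-fold lower in the KO-labelled libraries (109.2 ± 4.47 against 39.7 ± 0.57 CPM). Epcam was 4.24-fold higher (10.95 ± 0.44 against 46.4 ± 3.12 CPM, edgeR adjusted p = 1.01e-13). The part of stromal and epithelial cells in the results was not tested either.

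In ILC development these factors act in sequence and in circuits. ZBTB16 (also called PLZF) and NFIL3 mark or establish the innate lymphoid precursor, GATA3, RORα and BCL11B then set and maintain the ILC2 fate, and GFI1 holds down genes of other ILC classes. ETS1 supports ILC2 development, LMO4 is an adaptor of transcription complexes that binds no DNA itself, and MAF and BHLHE40 tune cytokine genes in activated lymphocytes.

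The 10 genes did not move together. Gata3, Rora, Bcl11b and Lmo4 were higher in the KO-labelled libraries, Nfil3, Gfi1 and Maf were lower, and Ets1 and Bhlhe40 did not pass the test. Zbtb16 was counted at trace level in WT, was at 0 in the other group and had too few counts for the test. Of the 9 genes tested, 4 were called higher (background 33.1% of 12150 tested genes) and 3 lower (background 33.2%), in edgeR's quasi-likelihood test with Benjamini-Hochberg adjustment over all tested genes. In either direction 7 of 9 were called, 77.8%, against 66.3% of all tested genes, so the share of called members lay near the background. The median log2 fold change of the 9 genes was 0.05, against 0.01 over all tested genes. A change of at least 2-fold was found in 3 of 9, Gata3, Rora and Nfil3, against 16.4% of all tested genes. The values of the 2 groups did not overlap in 7 of the 9 tested genes, against 68.9% of all tested genes. In bulk libraries such as these, fewer cells of a kind and less RNA per cell cannot be told apart.

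**Figure D1:**
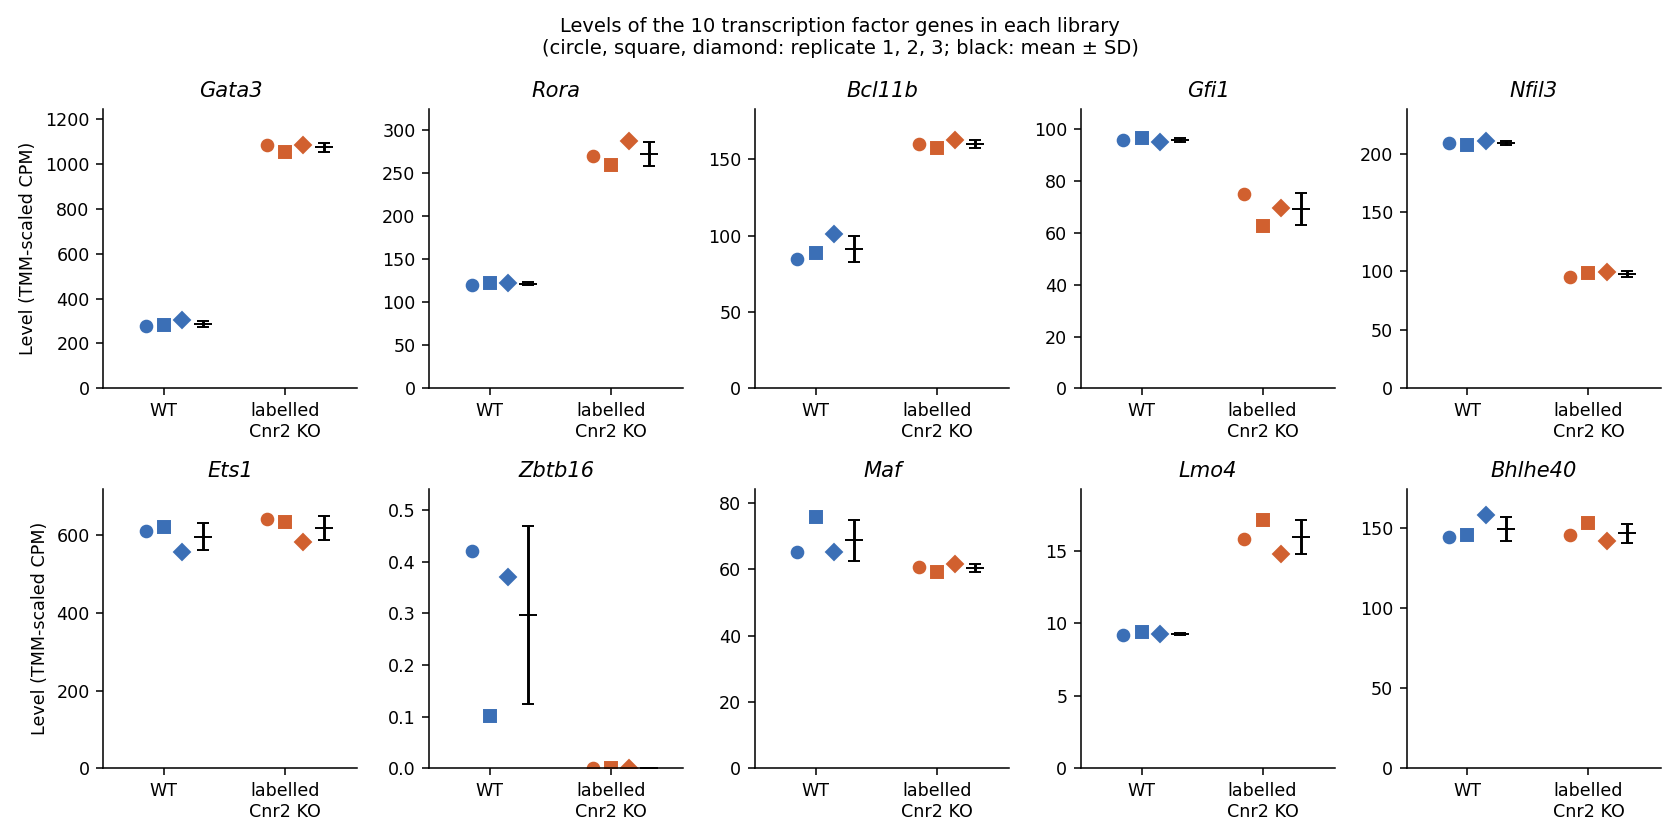
Level of each of the 10 genes in every library, in TMM-scaled CPM on linear axes that start at 0; symbols are replicates 1 to 3 and black bars the mean ± SD of 3 libraries. Gata3, Rora, Bcl11b and Lmo4 sit higher in each KO-labelled library than in each WT library, Nfil3, Gfi1 and Maf lower, and the groups overlap for Ets1 and Bhlhe40.

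Gata3 (ENSMUSG00000015619.10, chromosome 2, 9857078 to 9890034, minus strand, GRCm38) encodes the zinc finger factor that specifies type 2 lymphocytes and keeps mature ILC2s alive and functional. Its level, a CPM value scaled by TMM, was 279.0, 282.5 and 303.8 CPM in WT replicates 1, 2 and 3 and 1084, 1052 and 1084 CPM in the KO-labelled libraries. The lowest KO-labelled library was thus well above the highest WT library. The difference was 3.72-fold (95% interval 3.48 to 3.98), or 1.90 ± 0.05 (SE) as a log2 fold change (edgeR adjusted p = 1.05e-16), and 94.7% of the tested genes changed by less in either direction. Within each library, which removes the scaling between libraries, Gata3 had 1.34, 1.36 and 1.44 counts per Nfil3 count in WT and 11.4, 10.7 and 11.0 in the KO-labelled libraries. It had 2.38 ± 0.10 counts per Rora count in WT and 3.95 ± 0.15 in the KO-labelled libraries (SD, n = 3 each), with no overlap between the groups. The ratio to Nfil3 also holds the 2.15-fold fall of Nfil3, and the ratio to Rora the 2.24-fold rise of Rora. Gata3 shares exon bases with Gm13256, not analysed here, on the other strand and with 9230102O04Rik, which had at most 20.8 counts in any library.

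Rora (ENSMUSG00000032238.17, chromosome 9, 68653786 to 69388246, plus strand) encodes the nuclear receptor RORα, without which ILC2s fail to develop. It stood at 119.3, 122.5 and 121.9 CPM in WT and 270.0, 259.6 and 286.7 CPM in the KO-labelled libraries. The WT values were tight, with a coefficient of variation of 1.39%, and no KO-labelled library came near them. Rora was 2.24-fold higher (log2 fold change 1.17, SE 0.05, edgeR adjusted p = 1.79e-13). With an offset for GC content and length its log2 fold change was 0.96, under the 2-fold line but still called. Rora shares 82 exon bases with Gm15511 on the other strand, not analysed here.

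Bcl11b (ENSMUSG00000048251.15, chromosome 12, 107910403 to 108003602, minus strand) encodes a zinc finger factor that maintains ILC2 identity and acts upstream of Gfi1. It was at 84.7, 88.7 and 100.8 CPM in WT and 160.2, 157.2 and 162.3 CPM in the KO-labelled libraries. WT varied more than the other group here, with a coefficient of variation of 9.16% against 1.62%, and the groups stayed apart. The rise was 1.75-fold (95% interval 1.61 to 1.91, edgeR adjusted p = 5.53e-10).

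Gfi1 (ENSMUSG00000029275.18, chromosome 5, 107716657 to 107726036, minus strand) went the other way. It encodes a repressor that sustains GATA3 and the IL-33 receptor in ILC2s and restrains IL-17 genes. Levels were 95.7, 96.5 and 95.2 CPM in WT and 75.1, 62.8 and 69.4 CPM in the KO-labelled libraries. All 3 of the latter were under the lowest WT value, although they spread more (coefficient of variation 8.92% against 0.688% in WT). Gfi1 was 1.39-fold lower (log2 fold change -0.47, SE 0.06, edgeR adjusted p = 2.42e-06). Per Gfi1 count there were 0.954 ± 0.092 Bcl11b counts in WT and 2.32 ± 0.19 in the KO-labelled libraries. Gfi1 shares 101 exon bases with A430072P03Rik on the other strand, which had 9 to 45 counts in 5 libraries and 161 in the deep WT replicate 2.

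Of the precursor factors, Nfil3 (ENSMUSG00000056749.7, chromosome 13, 52967209 to 52981073, minus strand) showed the largest fall among the tested members. It encodes a basic leucine zipper repressor needed early in ILC development, and also found in the circadian clock. Its level was 208.6, 207.6 and 210.9 CPM in WT and 94.8, 98.6 and 98.8 CPM in the KO-labelled libraries. Both groups were tight, with coefficients of variation of 0.796% and 2.31%. Nfil3 was 2.15-fold lower (log2 fold change -1.10, SE 0.05, edgeR adjusted p = 2.41e-13).

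Zbtb16 (ENSMUSG00000066687.5, chromosome 9, 48654297 to 48836222, minus strand), the precursor gene that mature ILC2s largely turn off, was counted 8, 13 and 7 times in WT replicates 1, 2 and 3 and 0 times in each KO-labelled library. WT replicate 2, the deepest library, gave 0.101 CPM against 0.420 and 0.370 CPM in the others, so the WT values were uneven. Taking a floor of 3 counts for that group as a whole, Zbtb16 was at least 3.12-fold lower in the KO-labelled libraries. That limit was 7.35-fold without WT replicate 2, and 2.04, 2.07 and 2.13-fold without KO-labelled replicate 1, 2 or 3. It was outside the main test, and was called lower where no filter on low counts was used (edgeR adjusted p = 0.00825) and in DESeq2 (adjusted p = 0.00700).

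Ets1 (ENSMUSG00000032035.15, chromosome 9, 32636221 to 32757820, plus strand), the founding member of the ETS family, was at 611.2, 621.0 and 557.1 CPM in WT and 640.6, 633.0 and 582.9 CPM in the KO-labelled libraries. Replicate 3 was the lowest in each group and the groups overlapped. The ratio was 1.04 with a 95% interval of 0.964 to 1.12 (edgeR adjusted p = 0.374), which leaves room for a change of up to 1.12-fold.

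Maf (ENSMUSG00000055435.6, chromosome 8, 115682942 to 115707794, minus strand) encodes c-MAF, a leucine zipper activator of IL-10 and IL-4 in T cells. It was at 65.2, 75.8 and 65.1 CPM in WT and 60.5, 59.1 and 61.4 CPM in the KO-labelled libraries. The 3 WT values lay above the others, 2 of them by a narrow margin. Maf was 1.15-fold lower (log2 fold change -0.20, SE 0.07, edgeR adjusted p = 0.0163), and the call was lost without WT replicate 2 (log2 fold change -0.11, adjusted p = 0.162) or without KO-labelled replicate 2 (-0.18, adjusted p = 0.0628). Maf shares 440 exon bases with Gm15655 on the other strand, not analysed here.

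Bhlhe40 (ENSMUSG00000030103.11, chromosome 6, 108660629 to 108666925, plus strand) encodes a basic helix-loop-helix repressor that supports GM-CSF and restrains IL-10 in T cells. It was at 144.7, 146.0 and 158.2 CPM in WT and 145.7, 153.5 and 141.9 CPM in the KO-labelled libraries. The groups were interleaved. The ratio was 0.984 (95% interval 0.912 to 1.06, edgeR adjusted p = 0.707). Bhlhe40 shares 118 exon bases with 0610040F04Rik on the other strand, not analysed here.

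Lmo4 (ENSMUSG00000028266.17, chromosome 3, 144188530 to 144205220, minus strand) encodes a LIM-only protein that bridges transcription factors through LDB1. It had the fewest counts of the tested members, 175 in WT replicates 1 and 3, and stood at 9.19, 9.37 and 9.25 CPM in WT and 15.8, 17.1 and 14.8 CPM in the KO-labelled libraries. The groups did not overlap. The rise was 1.71-fold (95% interval 1.47 to 2.01, edgeR adjusted p = 3.52e-06), whereas its partner Ldb1, at 130.1 ± 2.64 and 122.5 ± 6.34 CPM, did not pass (edgeR adjusted p = 0.147).

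**Figure D2:**
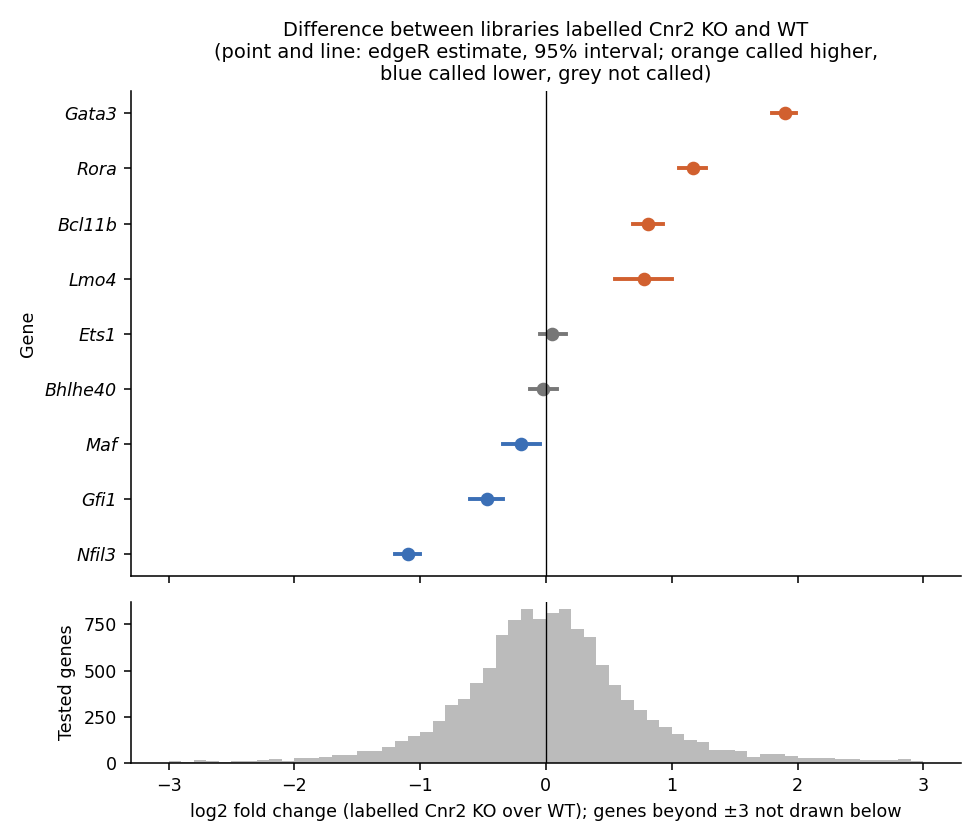
Top, log2 fold change of the 9 tested genes (KO-labelled libraries over WT) with its 95% interval; bottom, histogram of the log2 fold changes of all tested genes within ±3. Gata3 at 1.90 and Nfil3 at -1.10 are the ends of the range, and the intervals of Ets1 and Bhlhe40 span 0.

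Levels of different genes were compared per length, as CPM per kb of merged exon sequence, where reads from a longer transcript no longer weigh more. In WT, Nfil3 was the highest of the 10 genes at 103.2 ± 0.82 CPM per kb, followed by Gata3 (72.5 ± 3.4) and Ets1 (70.4 ± 4.1), whose values overlapped. Bhlhe40 (31.8 ± 1.6) and Gfi1 (30.1 ± 0.21) came next, then Bcl11b (11.3 ± 1.0), Rora (9.28 ± 0.13) and Maf (8.34 ± 0.75), of which Rora and Maf overlapped. Lmo4 (2.63 ± 0.026) and Zbtb16 (0.0562 ± 0.033) were the lowest. In the KO-labelled libraries, Gata3 was first at 269.8 ± 4.7 CPM per kb, above 99.3% of the genes with a length, and Ets1 (73.0 ± 3.7) and Nfil3 (48.1 ± 1.1) followed. Bhlhe40 kept the fourth place at 31.3 ± 1.3. Gfi1 (21.7 ± 1.9), Rora (20.8 ± 1.0) and Bcl11b (19.7 ± 0.32) lay close together there, with Gfi1 overlapping Rora and Rora overlapping Bcl11b, whereas in WT Gfi1 was clear of both. Maf (7.33 ± 0.14) and Lmo4 (4.51 ± 0.33) were the lowest of the genes with counts.

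**Figure D3:**
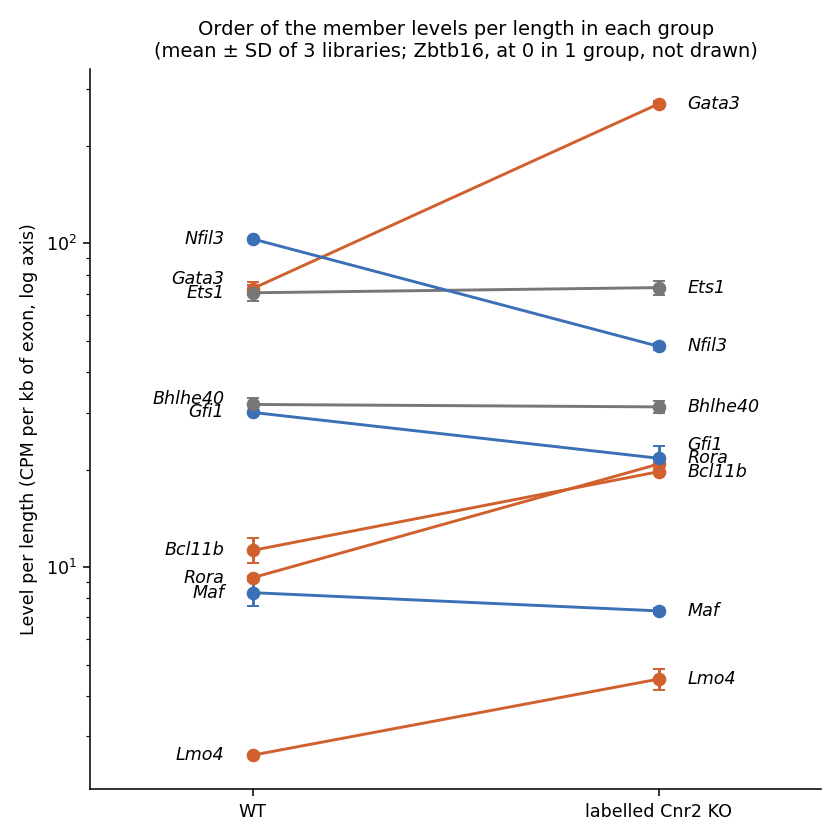
Mean ± SD of 3 libraries of the level per length (CPM per kb of exon, log axis) in each group, joined per gene; orange genes were called higher, blue lower and grey ones not called. The lines of Gata3 and Nfil3 cross, and Gfi1, above Rora and Bcl11b in WT, meets them near 20.8 in the KO-labelled libraries.

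Promoter sequence was looked at for the member with the largest rise and the tested member with the largest fall, Gata3 and Nfil3. The windows are from RefSeq (GRCm38.p6), 250 bases before to 50 after a transcript start, which was given for 6 of the 10 genes in 9 windows. The Gata3 window is chr2:9878551-9878850 on the minus strand and the Nfil3 window chr13:52980990-52981289 on the minus strand, both written 5′ to 3′ on the gene's strand. The Gata3 window lies inside the annotated gene, which ends at 9890034, so the outermost Gata3 start was not searched. Capitals mark the match described next.
Gata3: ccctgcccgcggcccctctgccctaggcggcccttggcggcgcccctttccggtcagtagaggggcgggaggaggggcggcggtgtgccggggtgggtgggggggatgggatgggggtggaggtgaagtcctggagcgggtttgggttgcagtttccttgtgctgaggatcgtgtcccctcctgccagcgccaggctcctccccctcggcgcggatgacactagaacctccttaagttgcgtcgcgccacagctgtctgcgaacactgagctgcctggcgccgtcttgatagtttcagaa
Nfil3: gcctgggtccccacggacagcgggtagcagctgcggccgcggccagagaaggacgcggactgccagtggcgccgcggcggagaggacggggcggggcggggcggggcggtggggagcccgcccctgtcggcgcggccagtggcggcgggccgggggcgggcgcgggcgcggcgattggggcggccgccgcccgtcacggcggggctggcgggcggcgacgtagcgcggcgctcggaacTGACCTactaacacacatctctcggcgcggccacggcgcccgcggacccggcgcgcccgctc
Short patterns were searched on both strands, with their share among 32851 promoter windows of the same length. The GATA site written AGATAA was found in 11.2% of all windows, and its variant TGATAA in 9.05%. The half-site of ROR receptors, AGGTCA, was found in 16.3%. Sites of NFIL3 and its relatives were rarer, with TTACGTAA in 0.119% of windows and the variant TTATGTAA in 0.938%. The E-box bound by BHLHE40, CACGTG, was found in 7.15%, the ETS pattern CCGGAAGT in 3.89%, the AP-1 pattern TGACTCA in 5.20% and the NF-kB pattern GGGNNTTCC in 5.82%. The only match in the 9 member windows was the ROR half-site in that of Nfil3, on the strand opposite to the one printed, with its first base 12 bases before the start. The Gata3 window was 67.3% G and C and the Nfil3 window 81.7%, against a median of 52.7% over all windows, while the Bcl11b window was 43.0%.

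Relatives of the members by protein family also changed in both directions. Of 25 listed relatives 18 were in the table and 13 were tested: 6 were called higher, 3 lower and 4 neither, with a median log2 fold change of 0.35. The called share was 69.2%, near the 66.3% of all tested genes. Among the leucine zipper genes that share DNA sites with NFIL3 and activate where it represses, Hlf was 4.57-fold higher in the KO-labelled libraries (49.1 ± 1.61 against 225.0 ± 14.6 CPM, edgeR adjusted p = 2.70e-16). Tef, chosen after its values were seen, was 1.73-fold higher, and Dbp, chosen in the same way, was at 2.37 ± 0.0538 and 3.05 ± 0.237 CPM (adjusted p = 0.173). Of the ETS family, Fli1 (1.86-fold) and Ets2 (1.88-fold) were higher, while Ets1 was not called. Zbtb32, a relative of Zbtb16 that restrains lymphocyte activation, fell from 139.9 ± 2.24 to 25.0 ± 1.36 CPM, 5.60-fold lower. The small MAF genes Mafk (1.57-fold) and Mafg (1.12-fold, edgeR adjusted p = 0.0334, with overlapping groups) were lower, while Maff, another small MAF gene, did not pass (log2 fold change -0.21, adjusted p = 0.424, with overlapping groups). The call of Mafg was lost without WT replicate 3 (adjusted p = 0.147), KO-labelled replicate 1 (0.155) or KO-labelled replicate 2 (0.0891).

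Of 24 other factors of ILC development and function, 23 were in the table and 22 tested, with 10 called higher, 8 lower and 4 neither (81.8% called, against 66.3% of all tested genes), and a median log2 fold change of -0.01. Zfpm1, which encodes the GATA partner FOG-1, was 2.56-fold higher in the KO-labelled libraries (13.99 ± 1.96 against 35.1 ± 5.71 CPM, edgeR adjusted p = 6.02e-09). Ahr, a ligand-activated receptor of barrier lymphocytes, was 3.69-fold higher and Bach2, a repressor linked to less activated lymphocytes, 4.15-fold. Myb, a factor of progenitors and dividing cells, was 3.90-fold lower, Zeb2 1.86-fold and Tox2 1.62-fold.

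Genes known to depend on GATA3 or to define the mature ILC2 response, 12 in all and all tested, had 7 called higher, 3 lower and 2 neither (83.3% called, against 66.3% of all tested genes), with a median log2 fold change of 0.45 against 0.01 over all tested genes. The receptor genes Il17rb (5.09-fold), Il9r (4.28-fold) and Il1rl1 (1.71-fold) were higher like Gata3. Il2ra (2.03-fold), Areg (1.74-fold) and Il13 (1.88-fold) were lower, against the direction of Gata3. Of 12 listed ILC1 and ILC3 genes, which GFI1 and BCL11B are known to hold down, 7 were in the table and 4 tested. Ahr, also 1 of the other factors of ILC development named above and not on the list of GATA3-dependent genes, was called higher. Il17f and Il22 were called lower. Il17f had 246 counts and Il22 262 counts over the WT libraries, and both had 0 in the KO-labelled ones. Il17a, with too few counts for the test, had 143 and 0.

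**Figure D4:**
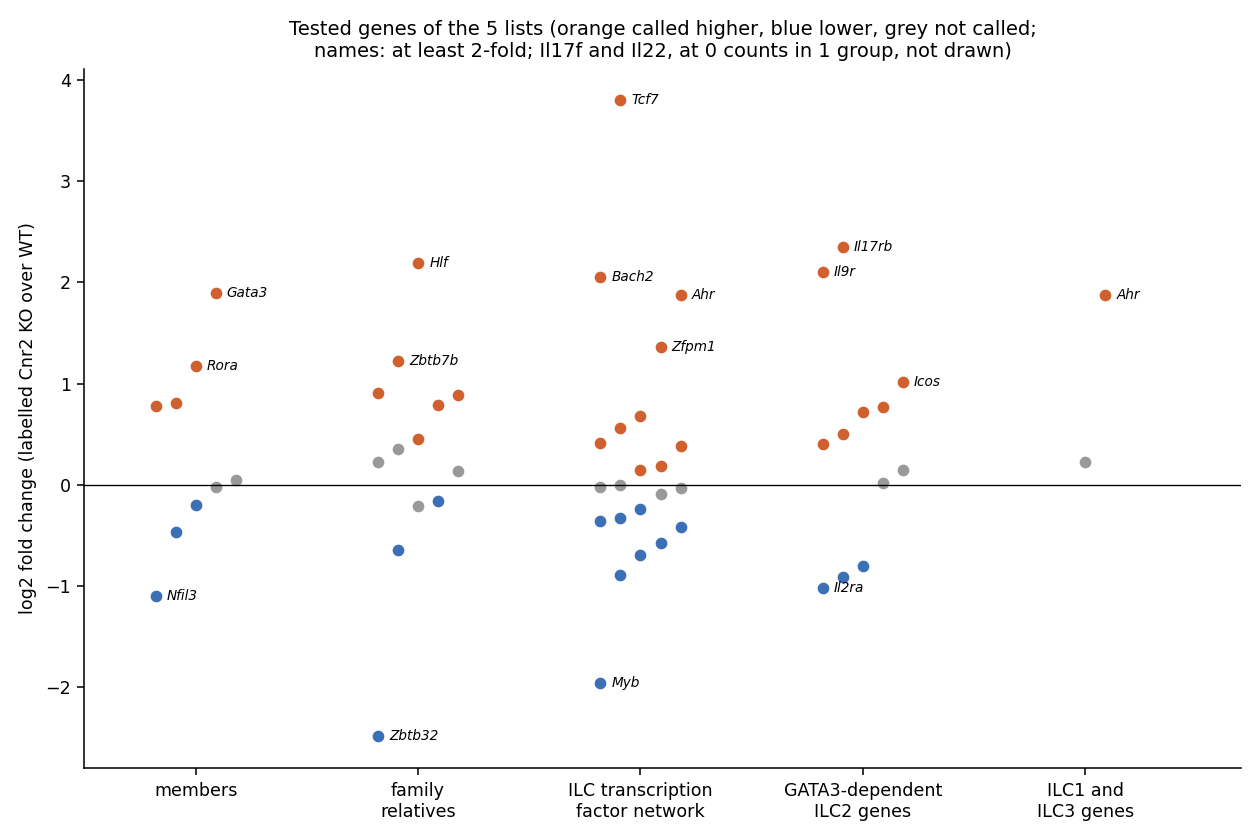
Log2 fold change (KO-labelled libraries over WT) of each tested gene of the 5 lists; orange points were called higher, blue lower and grey not called, and genes with a change of at least 2-fold are named. Every list but the last holds called genes on both sides of 0 as drawn, and Il17f and Il22, at 0 counts in the KO-labelled libraries, are left out.

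The genes whose profile over the 6 libraries was most like that of Gata3 were Crip1, Itgb7 and Gm10282. Likeness was the Euclidean distance of log2 levels centred on their mean, and it was 0.11, 0.12 and 0.13 for these genes. Itgb7, an integrin chain for homing to the gut, was at 336.4 ± 4.14 CPM (WT) and 1214 ± 46.2 CPM (KO-labelled). Crip1, which encodes a small LIM protein, was at 35.7 ± 2.75 and 134.1 ± 6.61 CPM, and Gm10282 at 13.3 ± 0.142 and 49.7 ± 1.31 CPM. With 3 libraries in each of 2 groups, this measure mostly ranks genes by the size of their group difference.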

How the data were processed

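The values deposited are expected counts (estimates with decimals). By library, 59.08 to 81.23% were whole to within 0.02. Partek 10.0, STAR 2.7.8, DESeq2 and mm10 are named, without a role, in the submitters' processing notes. How reads were counted, and whether by strand, is not given in the sources used here. A low-input kit turned 10 pg of RNA per sample into cDNA, per the labels' protocols. As the strand setting is unknown, counts of overlapping genes may hold each other's reads.

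Counts were rounded and tested with edgeR 4.0.16 (R 4.3.3): TMM, filterByExpr (minimum count 10, minimum total 15), genotype as the only term, quasi-likelihood test, Benjamini-Hochberg adjustment over the 12150 genes tested, called at adjusted p under 0.05. It left out 4438 genes. The SE is the absolute log2 fold change divided by the square root of F, and 95% intervals use its t quantile. Counts of 12150 genes were also simulated for WT against Cnr2 KO, with 1 common spread between replicates (coefficient of variation 0.0615) for all genes. In that simulation 66% of 50 genes (above 5 CPM) altered 1.25-fold were found and 100% of 50 at each of 1.5, 2 and 4-fold. Unaltered genes made up 7.58% of the calls there. Only those few genes were altered, whereas 66.3% of genes were called in the data, so these shares hold for the simulated setting alone. Lengths and positions are from GENCODE M21 (GRCm38), which matched 16233 of 16588 genes.

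The 10 genes and all lists were chosen with earlier results of these data known. From each list the 3 called genes with the smallest p per direction are named, and for Gata3 the 3 most similar genes with a mean of at least 20 CPM over the 6 libraries (0.5 added before the log2). Ldb1, Tef, Dbp, Maff, Il17a and the single cell type markers were chosen after their values were seen. One listed gene is not reported here. Alternatives were DESeq2 size factors, no filter, DESeq2 1.42.0, limma-voom (limma 3.58.1), a replicate block, thinning of WT replicate 2, a GC and length offset, and leaving out each library. Libraries of the same group were not duplicates of each other: their chi-square per gene was 4.15 to 8.07, above sampling noise. Whether replicates are separate animals or cultures is not in the labels, and p-values then cover only the spread of these samples, which may be technical. Floors cover counting error only.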

Additional observations from a re-analysis of the deposited data

How the results depend on the processing

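The number of members called higher was 4 under each of the 13 alternatives run, and the number called lower was 2 to 4: it was 4 without a filter and in DESeq2, which add Zbtb16, and 2 without WT replicate 2 or without KO-labelled replicate 2, which lose Maf. The number called and at least 2-fold was 2 to 4, with 2 under the GC and length offset. The log2 fold change ranged over the alternatives from 1.87 to 1.93 for Gata3, 0.96 to 1.20 for Rora, 0.71 to 0.87 for Bcl11b, 0.72 to 0.83 for Lmo4, -0.53 to -0.41 for Gfi1, -1.12 to -1.03 for Nfil3 and -0.31 to -0.11 for Maf. The members not called changed sign around 0, over -0.06 to 0.09 for Ets1 and -0.05 to 0.01 for Bhlhe40: Ets1 was at -0.06 with the GC and length offset and at 0 without WT replicate 3, and Bhlhe40 at 0.01 without WT replicate 3 and 0 without KO-labelled replicate 3 (adjusted p = 0.132 to 0.999 for Ets1 and 0.441 to 0.978 for Bhlhe40 over the alternatives); the cause was not tested. Called relatives numbered 8 to 10, called factors of the ILC network 16 to 19, called GATA3-dependent genes 10 to 11 and called ILC1 and ILC3 genes 3 to 4. With the replicate block, 4 members were called higher and 3 lower, and 8174 genes in all against 8053 without it. Same-numbered libraries deviated together only weakly (r = 0.066, 0.006 and 0.043), and not every library correlated best with its own number, so the numbers were not taken as pairs. The median of all genes was 0.01 with DESeq2 size factors, -0.01 with the GC and length offset and -0.03 without a filter. Zbtb16 is limited by its few counts, 28 in WT in all, of which the deep WT replicate 2 held 13.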
